A study of Mus musculus with 2 samples.

Results

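The membrane-spanning 4A genes are a family of tetraspan membrane proteins, and 7 of them were examined in adipose tissue macrophages (ATM): Ms4a1, Ms4a4a, Ms4a4c, Ms4a6b, Ms4a6c, Ms4a6d and Ms4a7. They were chosen by name from the deposited expression table. Of the 7 genes, 6 had a row among the 20330 gene identifiers of the table. Ms4a4a had none and was not analysed here. The ATM came from visceral fat of C57BL/6 mice given an atherogenic high-fat diet (HFD) for 12 weeks, and were sorted for F4/80 and CD11b, a pair of surface proteins of macrophages. All mice were ApoE-/- and Hif-1α fl/fl, so the controls carried the disrupted ApoE alleles too. WT mice were hMRP8cre-, and KO mice were hMRP8cre+, which places the Cre recombinase under the human MRP8 promoter, active in myeloid cells. There was 1 library of poly(A) RNA per genotype. By the methods of the study the diet began at 4 weeks of age. The labels did not give the number of animals behind a library, and no difference below has a replicate check or a p-value.

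Proteins of this family cross the membrane several times, have both ends in the cytoplasm and lie beside immune receptors. The founding member, Ms4a1, encodes CD20, the B cell surface protein. Most of the other members mark macrophages, monocytes, T cells or mast cells, and several are thought to tune signalling from the receptor they sit next to. In mouse and man the genes lie side by side in 1 cluster.

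Levels were given as FPKM, fragments per kilobase of transcript scaled to the mapped fragments, which is per length and can be set side by side between genes. A difference is log2(FPKM + 1), KO minus WT, and genes past a 3-fold difference on that scale were counted as higher or lower. Genes under 1 FPKM in both libraries were left out of such counts. The steps between the lowest FPKM values put the depth at an estimated 5860000 fragments for WT and 7470000 for KO. Fragment numbers below are estimates from these steps, and their intervals (95%, exact) cover counting error only, since PCR copies are not independent molecules. Macrophage markers were high in both libraries, with 13 of 14 having a row and all 13 passing 1 FPKM. The genes of the sort markers were present, with Adgre1 (F4/80) at 299 and 239 FPKM (WT and KO) and Itgam (CD11b) at 128 in both. C1qb was at 4726 FPKM in WT against 4663 in KO, Lyz2 at 3936 and 4080, and C1qc at 3437 and 2809. Hif1a, the targeted gene, was at 30.4 FPKM in WT against 20.97 in KO, and a value over the whole gene does not show whether the floxed exon was removed. Apoe, labelled -/- in both groups, was still listed at 94.3 and 117 FPKM (WT and KO), which does not show whether a protein was made.

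Ms4a7, Ms4a6c, Ms4a6d and Ms4a6b were abundant in both libraries, each above 60 FPKM, while Ms4a4c and Ms4a1 were near the floor. Of the 5 members that passed 1 FPKM in a library, none was counted as higher in KO and 1, Ms4a4c, was counted as lower. Over all 10297 genes that passed, 27.3% were past 3-fold, 13.6% higher and 13.7% lower in KO. The median difference of the 5 members was -0.00, against 0.03 over all genes. It was 0.61 with 1 FPKM required in both libraries or a mean of 5 FPKM, since Ms4a4c passed only through WT. The median hides a split within the family, in which Ms4a6d and Ms4a6b stood above WT, Ms4a7 and Ms4a6c close to it and Ms4a4c below it. In bulk RNA, fewer cells of a type and less RNA per cell cannot be told apart.

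**Figure D1:**
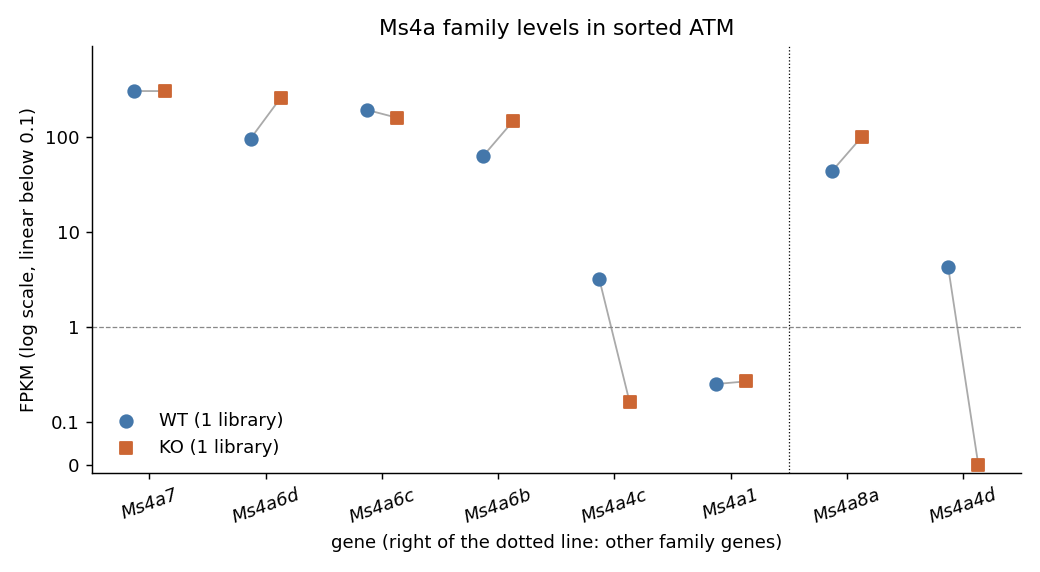
FPKM (log axis, linear below 0.1) of the 6 members with a row and of 2 further family genes, with a circle for the WT library and a square for the KO library. The dashed line marks the 1 FPKM filter. Ms4a7, Ms4a6c, Ms4a6d and Ms4a6b lie far above it in both libraries, and Ms4a4d is listed at 0 in KO.

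The summed level of the 6 members was 656 FPKM in WT against 866 in KO, a ratio of 1.32. This was 0.112% of all FPKM in WT against 0.152% in KO. The composition of the sum differed between the libraries. Ms4a7 made up 46.1% of it in WT and 34.9% in KO, and Ms4a6c 29.2% and 18.3%. Ms4a6d made up 14.6% in WT and 29.8% in KO, and Ms4a6b 9.56% and 17.0%. Ms4a6d and Ms4a6c therefore changed places in the order of the members, with Ms4a6c second in WT and Ms4a6d second in KO. Ms4a4c and Ms4a1 added little, at 0.485% and 0.0385% of the sum in WT and 0.0190% and 0.0311% in KO.

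Ms4a7, a gene of tissue macrophages, had the highest level of the 6 members in both libraries. It was at 302 FPKM in WT against 302 in KO, from an estimated 2791 and 3554 fragments. The ratio of KO to WT was 0.999 (0.950 to 1.05), an interval that lies on both sides of equality. Ranked by level, it was at rank 283 of all genes in WT and at rank 284 in KO. No direction was read from a difference of -0.00, since a small rescaling of either library turns its sign. The 3 genes closest to Ms4a7 in log2(FPKM + 1) over the 2 libraries were H2afz, a histone variant, at 297 and 308 FPKM, Atp5e, a subunit of ATP synthase, at 309 and 308 FPKM, and Tlr2, the receptor for bacterial lipoproteins, at 293 and 295 FPKM. Their distances to Ms4a7 were 0.0381, 0.0412 and 0.0561, and with 2 libraries such likeness means like level only.

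Ms4a6d, a macrophage member that has been linked with the receptor Vsig4 and the inflammasome gene Nlrp3, was at 95.8 FPKM in WT against 258 in KO. Its difference was 1.42 on the log2 scale, under the 3-fold threshold. The KO to WT ratio was 2.69 (2.49 to 2.92), from an estimated 796 and 2731 fragments. Ms4a6b, known best from T cells and also expressed in macrophages, was at 62.7 FPKM in WT against 147 in KO, a difference of 1.22. Its ratio was 2.35 (2.18 to 2.53), from an estimated 984 and 2945 fragments. For both genes the gap between the libraries was far wider than the counting error, although counting error leaves out the spread between animals. By level, Ms4a6d was at rank 790 in WT and 324 in KO, and Ms4a6b at rank 1197 and 524.

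Genes of like level gave a scale for these differences. Among 1021 genes with a mean of 50 to 200 FPKM, the central range of differences, from the 10th to the 90th percentile, ran from -0.85 to 0.71, and 4.31% of genes were past 3-fold and 13.5% past 2-fold. Only 19 of these genes (1.86%) had a higher difference than Ms4a6d, and 37 (3.62%) a higher one than Ms4a6b. Ms4a6d and Ms4a6b were thus above the middle range of their bracket while still short of the 3-fold threshold. With the threshold at 2-fold both were counted as higher, where 23.1% of all genes and 5.68% of the bracket were counted as higher.

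**Figure D2:**
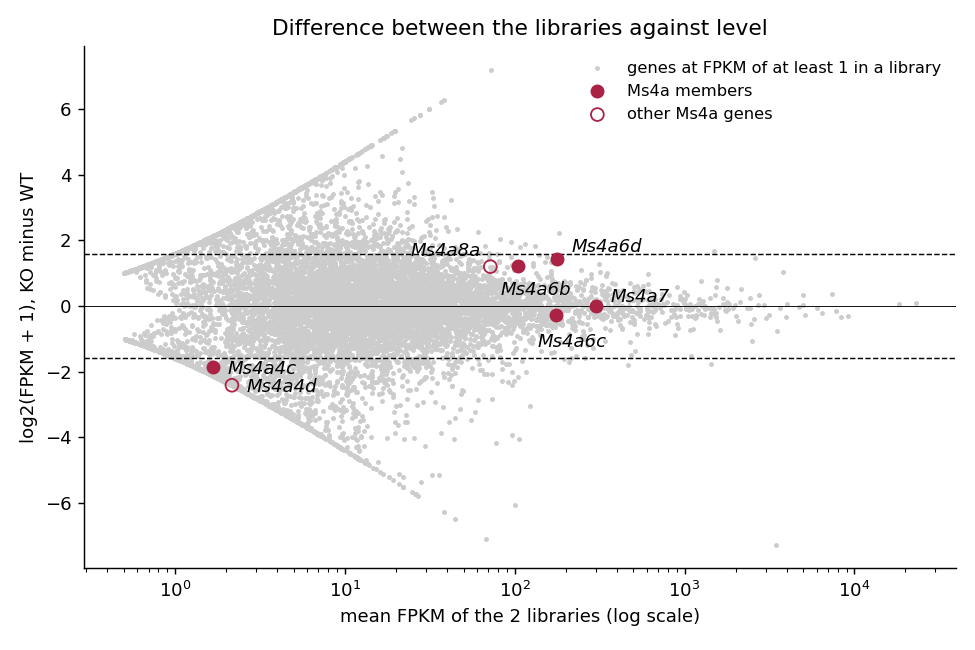
Difference in log2(FPKM + 1), KO minus WT, against the mean FPKM of the 2 libraries (log axis) for the 10297 genes that passed 1 FPKM in a library (grey). Filled circles are members, open circles are Ms4a8a and Ms4a4d, and dashed lines mark 3-fold. Ms4a6d (1.42) and Ms4a6b (1.22) lie at the upper edge of genes of their level, and Ms4a4c (-1.85) lies in the wide part of the cloud at low levels.

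Ms4a6c, a monocyte and macrophage gene and the closest relative of Ms4a6b among the members, did not share their pattern. It was at 192 FPKM in WT against 158 in KO, a difference of -0.27. Its ratio was 0.826 (0.777 to 0.877), from an estimated 2068 and 2176 fragments, which may include those of an overlapping gene of the opposite strand. Within the same bracket of 1021 genes, 31.3% had a lower difference than Ms4a6c, which places it inside the common range. Thus the 3 Ms4a6 genes stood at 95.8, 62.7 and 192 FPKM in WT (Ms4a6d, Ms4a6b, Ms4a6c) and at 258, 147 and 158 FPKM in KO.

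Ms4a4c, an interferon-responsive gene of monocytes and T cells, was the only member past 3-fold. It was at 3.18 FPKM in WT against 0.164 in KO, a difference of -1.85. These values came from an estimated 32 and 2 fragments, giving a KO to WT ratio of 0.0490 (0.00569 to 0.192). At this level large differences were common in both directions. Among 1478 genes with a mean under 2 FPKM, 41.7% were past 3-fold and 20.6% were lower in KO by that measure, and 193 (13.1%) had a lower difference than Ms4a4c. Of 3331 genes at 2 to 10 FPKM in WT, 502 (15.1%) had a value of 0 in KO. The call of Ms4a4c was lost when 1 FPKM was required in both libraries or a mean of 5 FPKM, since the gene then no longer passed.

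Monocyte markers were lower in KO by their median, as Ms4a4c was. All 10 genes of the list passed 1 FPKM in a library, with a median of -1.11, and the summed level was 258 FPKM in WT against 159 in KO. The median was -0.76 with 1 FPKM required in both libraries or a mean of 5 FPKM. Ly6c2, Chil3, Hp and Vcan passed only through WT. Fn1, the matrix protein fibronectin, was at 198 and 117 FPKM, Ccr2, the chemokine receptor of inflammatory monocytes, at 29.4 and 9.78 FPKM, and Plac8 at 1.58 and 17.0 FPKM. Of these 10 genes 7 had a lower value in KO, and 3 were past 3-fold, named after their values were seen: Ly6c2 at 9.39 FPKM in WT and listed at 0 in KO, Chil3 at 2.10 and listed at 0, and Cx3cr1 at 12.1 and 2.99. The list did not move as a block, since Plac8 and F10 (1.90 and 10.7 FPKM) were counted as higher. The count of 3 fell to 1 with 1 FPKM required in both libraries or a mean of 5 FPKM. Such calls were common at these levels. At a mean of 2 to 10 FPKM, where Ly6c2, Cx3cr1, Plac8 and F10 lie, 40.9% of genes were past 3-fold in either direction. In that range 20.8% were counted as higher. Under 2 FPKM, where Chil3 lies, 20.6% were counted as lower, against 13.7% over all genes. Interferon-stimulated genes had a median of 0.53 over the 10 of 12 that passed, with Oas2 at 55.7 and 81.1 FPKM, Irf7 at 37.8 and 55.2 and Oasl2 at 47.3 and 41.1. Of that list Ifit1 (0.256 and 4.26 FPKM) and Ifit2 (listed at 0 and 2.17) were counted as higher and none as lower. Both passed only through KO and were not counted with 1 FPKM required in both libraries or a mean of 5 FPKM, and of all genes with a mean of 2 to 10 FPKM, as Ifit1 had, 20.8% were counted as higher. The part of monocyte markers in the value of Ms4a4c was not tested.

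Ms4a1, which encodes CD20, was close to the detection limit in both libraries. It was at 0.253 FPKM in WT against 0.269 in KO, from an estimated 5 and 6 fragments, and did not pass the filter. With fragments rounded to whole numbers the ratio was 0.941, with a counting interval of 0.239 to 3.90, so that at this depth a difference up to several-fold was not detectable. The B cell markers around it were low as well. Of 15 such genes 13 had a row, 4 passed 1 FPKM, and 7 were listed at 0 in both libraries, including Pax5 and Ebf1, the transcription factors that define the lineage. The median of the 4 was -0.27. It was 0.88 with 1 FPKM required in both libraries or a mean of 5 FPKM, where of the 4 only Bank1 passed, so no direction was read from it. The summed level of the list was 16.6 FPKM in WT against 28.4 in KO, most of it from Bank1 at 11.3 and 21.6 FPKM. Cd79b, part of the B cell receptor, was counted as higher, listed at 0 in WT and at 5.52 in KO, whereas Cd79a, its partner chain, was at 2.50 and 0.222 (a difference of -1.52) and Cd22 at 2.81 and 0.431. Cd79b passed only through KO and was not counted under either stricter filter. Of all genes with a mean of 2 to 10 FPKM, as Cd79b had, 20.8% were counted as higher.

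The members of the cluster expressed in ATM were not neighbours in a single block. On the GRCm38 build, GENCODE places 22 protein-coding genes between the outermost Ms4a genes, over 679 kb of chromosome 19 (chr19:10962293-11640851), and 19 of them have a row. Only 8 of the 19 reached 1 FPKM in a library, and 10 were listed at 0 in both. Ms4a1 lies at chr19:11249675-11266241 and Ms4a7 at chr19:11321039-11336146, both on the minus strand. Ms4a4c (chr19:11404770-11427246), Ms4a6c (chr19:11469366-11482192) and Ms4a6b (chr19:11516512-11531256) follow on the plus strand, and Ms4a6d (chr19:11586604-11604849) is again on the minus strand. Ms4a6b and Ms4a6d, the members with the highest differences, are separated by Ms4a4d, which was listed at 0 in KO. Ms4a6c and Ms4a6b are separated by Gm8369, a gene outside the lists named for its position, at 7.07 FPKM in WT against 4.69 in KO.

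**Figure D3:**
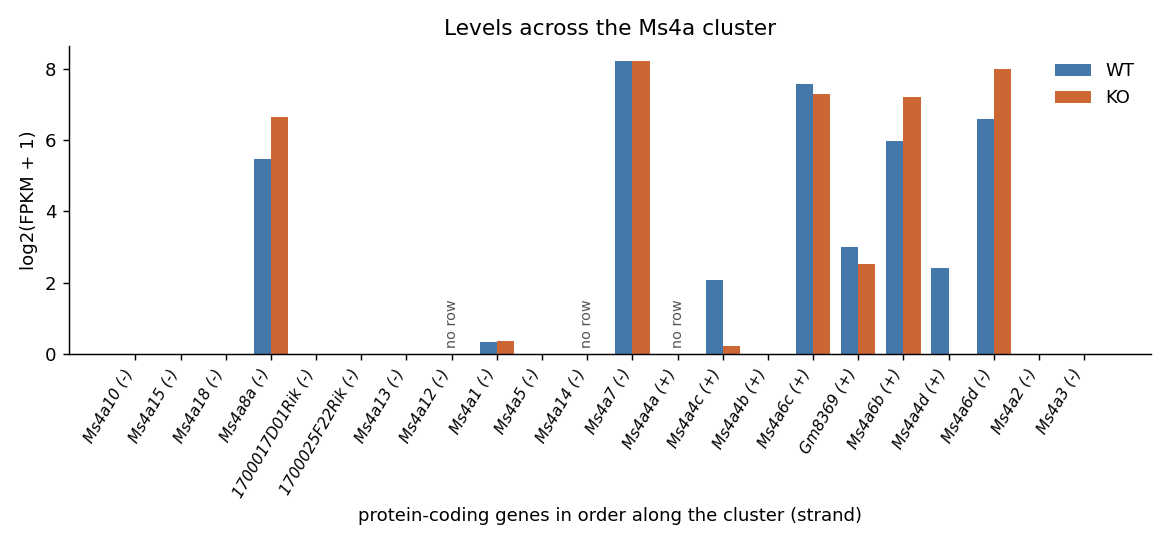
Level as log2(FPKM + 1) in WT (blue) and KO (orange) of the 22 protein-coding genes of the cluster, in their order on the chromosome, with the strand in brackets. Tall bars stand at Ms4a8a, Ms4a7, Ms4a6c, Ms4a6b and Ms4a6d, with low bars at Ms4a1, Ms4a4c, Gm8369 and Ms4a4d and the other genes with a row listed at 0. No row matched 3 genes.

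Of 15 other family genes, including the distant relatives Tmem176a and Tmem176b, 13 had a row and 4 passed 1 FPKM. Ms4a8a, a macrophage gene towards the other end of the cluster, was at 43.3 FPKM in WT against 101 in KO. Its difference was 1.20, and 38 of the 1021 genes at 50 to 200 FPKM (3.72%) had a higher one, so that it stood next to Ms4a6b. Ms4a4d, the only one of these genes past 3-fold, was at 4.33 FPKM in WT, an estimated 38 fragments, and was listed at 0 in KO. It passed only through WT and was not counted with 1 FPKM required in both libraries or a mean of 5 FPKM, and among the 3832 genes of its bracket (2 to 10 FPKM) 40.9% were past 3-fold in either direction and 486 (12.7%) had a lower difference than Ms4a4d. Tmem176a and Tmem176b, which pair in ion transport in dendritic cells and macrophages, were at 336 and 271 FPKM and at 687 and 719 FPKM (WT and KO), with differences of -0.31 and 0.07. The remaining 9 genes were listed at 0 in both libraries. These include Ms4a2, the beta chain of the mast cell IgE receptor, Ms4a3, a gene of granulocyte-monocyte progenitors, and Ms4a4b, a T cell gene.

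Markers of the cells for which those members are known were mostly at 0 as well. Of 10 mast cell and basophil markers 8 were listed at 0 in both libraries, and Hdc, histidine decarboxylase, was counted as higher at 1.72 FPKM in WT against 13.8 in KO, while Kit was listed at 0 and at 1.03. Of all genes with a mean of 2 to 10 FPKM, as Hdc had, 20.8% were counted as higher. Of the 9 T cell markers with a row 7 were listed at 0 in both, including Cd3e, Cd3d and Cd3g, and Cd2 (23.6 and 29.3 FPKM) and Cd28 (1.71 and 1.85 FPKM) were the others. Whether T cells contributed to the value of Ms4a6b was not tested.

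Genes linked with the family gave no common direction. Of 7 such genes 5 passed 1 FPKM, 1 was counted as higher and none as lower, with a median of 0.02. The background was 13.6% higher over all genes and 20.8% at 2 to 10 FPKM, where the gene counted, Vsig4, lies. Clec7a, the fungal sensor dectin-1 to which Ms4a4a binds, was at 95.2 FPKM in WT against 44.1 in KO, a difference of -1.09. Trem2, the lipid receptor of macrophages whose soluble form is tied to the human MS4A cluster, was at 228 and 155 FPKM, a difference of -0.55. Fcer1g, the signalling chain shared by Fc receptors, was at 2927 and 2965 FPKM.

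Of the pair of genes linked with Ms4a6d, Vsig4 was the one counted as higher. Vsig4, the complement receptor of resident macrophages, was at 0.127 FPKM in WT against 9.65 in KO, a difference of 3.24 from an estimated 1 and 103 fragments, a ratio of 80.8 (14.2 to 3222). Vsig4 was no longer counted with 1 FPKM required in both libraries or a mean of 5 FPKM. Nlrp3 was at 136 and 191 FPKM, a difference of 0.49 that was under the threshold. Tnfrsf18, which encodes the T cell receptor GITR with which Ms4a6b associates, and Fcer1a were listed at 0 in both libraries.

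Other cell type lists were compared for what they share with the members. Macrophage markers had a median of -0.00 and a sum of 16805 FPKM in WT against 16210 in KO, with none of 13 past 3-fold in either direction. At 2-fold Mertk (38.01 and 88.1 FPKM, a difference of 1.19) was counted as higher, and Aif1 (205 and 79.3, -1.36) and Fcgr1 (49.3 and 21.9, -1.14) as lower, named after their values were seen. Resident macrophage markers had a median of 0.34 and a sum of 5970 and 7557 FPKM, with Folr2 at 1712 and 1860, Pf4 at 1448 and 2115 and Cbr2 at 1344 and 1680 FPKM, and Vsig4 was the only one counted as higher. Timd4, of the same list, was at 53.4 and 25.1 FPKM, a difference of -1.06. Neutrophil markers stood higher in KO, with a sum of 143 FPKM in WT against 499 in KO over 10 genes, of which 4 were listed at 0 in both libraries. S100a9 was at 63.4 and 301 FPKM, S100a8, a gene of the calprotectin pair and the mouse counterpart of MRP8, at 73.3 and 182, and Cxcr2 at 5.83 and 7.96. Besides S100a9, Ngp and Mpo were counted as higher, both listed at 0 in WT and at 2.61 and 2.29 FPKM in KO. Both had a mean under 2 FPKM, where 21.1% of all genes were counted as higher, and with 1 FPKM required in both libraries or a mean of 5 FPKM only 1 neutrophil gene was. Of 8 dendritic cell markers 4 passed, with Cd209a at 122 and 131 FPKM, Siglech at 1.42 and 8.31 and Zbtb46 listed at 0 and at 9.45, the latter pair counted as higher. That count went to 1 with 1 FPKM required in both libraries and to 0 with a mean of 5 FPKM, and 20.8% of all genes at 2 to 10 FPKM, where both lie, were counted as higher. The other, Xcr1, was at 1.65 and 0.0588 FPKM, a difference of -1.33. The neutrophil sum was thus higher in KO, as were the values of Ms4a6d, Ms4a6b and Ms4a8a, and the part of neutrophils in those values was not tested. Camp, Ltf, Elane and Mmp8 were the 4 neutrophil markers listed at 0 in both libraries, and Retnlg, the remaining gene of that list, was at 0.385 and 2.46 FPKM. All these values are from cells sorted for F4/80 and CD11b.

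**Figure D4:**
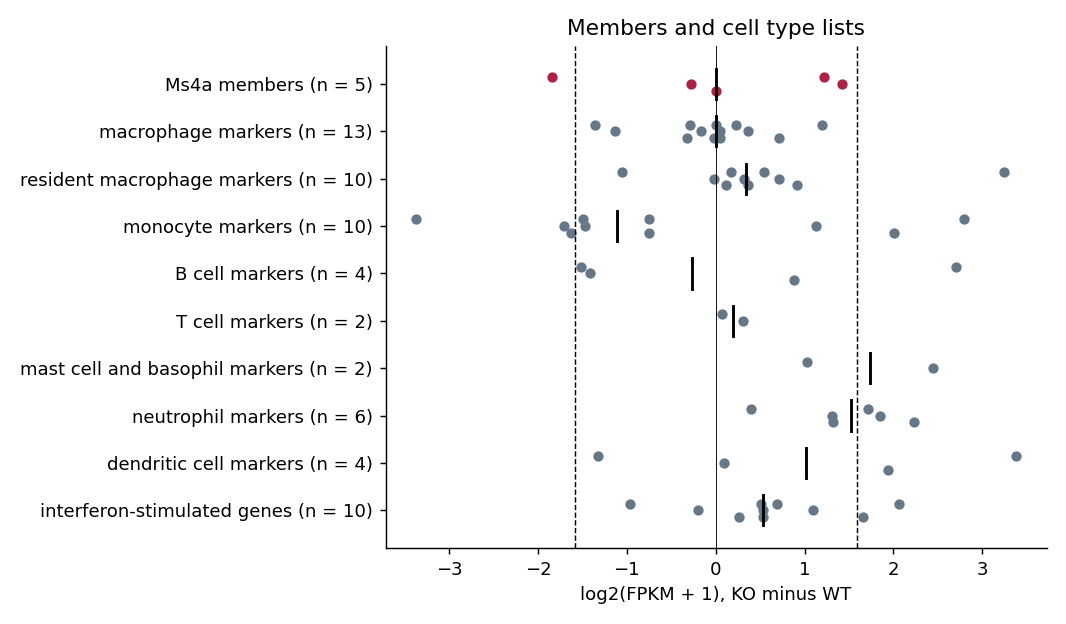
Difference in log2(FPKM + 1), KO minus WT, of each gene that passed 1 FPKM (points) in the members and in 9 lists, with the median as a bar and 3-fold as dashed lines. The members lie on both sides of 0 with a median of -0.00, which is 0.61 without Ms4a4c, and the monocyte median is -1.11, or -0.76 under the stricter filters. The neutrophil median of 1.52 includes 3 genes that passed only through KO, and is 0.85 with no filter.

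How alike the members are in sequence bears on how their fragments were assigned. Over aligned bases of the coding sequence, Ms4a6b was 85.3% identical to Ms4a6c and 81.3% to Ms4a6d, and Ms4a6c was 79.1% identical to Ms4a6d. Ms4a4a and Ms4a4c were 68.4% identical, and the other pairs of members 59.5% to 66.1%. Ms4a4c was 91.8% identical to Ms4a4b, which was listed at 0 in both libraries. Exact sharing was rarer than these identities. Of the 50-base windows of the longest coding transcript, none in Ms4a7, Ms4a1 or Ms4a8a occurred in a transcript of another gene. The share was 2.92% in Ms4a6d, 5.89% in Ms4a6b, mostly with Ms4a6c, and 8.48% in Ms4a4c, mostly with Ms4a4b. For Ms4a6d and Ms4a6b most of the transcript was therefore unique at this length, and the uncertain part of their values is the shared windows.

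Ms4a6c shared far more. Of its 1792 windows 1020 (56.9%) were also found elsewhere, 993 of them in BE692007, a non-coding gene of the opposite strand that overlaps it (chr19:11470166-11484578). All 931 windows of its 3' untranslated region were shared, against 9.59% of its coding windows. The library protocol describes no marking of strand, so fragments of Ms4a6c and of BE692007 could not be told apart, and the level of Ms4a6c is uncertain to that extent. BE692007 has no row in the table. Genes of the opposite strand also overlap Ms4a1, Ms4a4c and Ms4a6b, by 16567, 235 and 442 bases of the gene, and these have no row either.

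**Figure D5:**
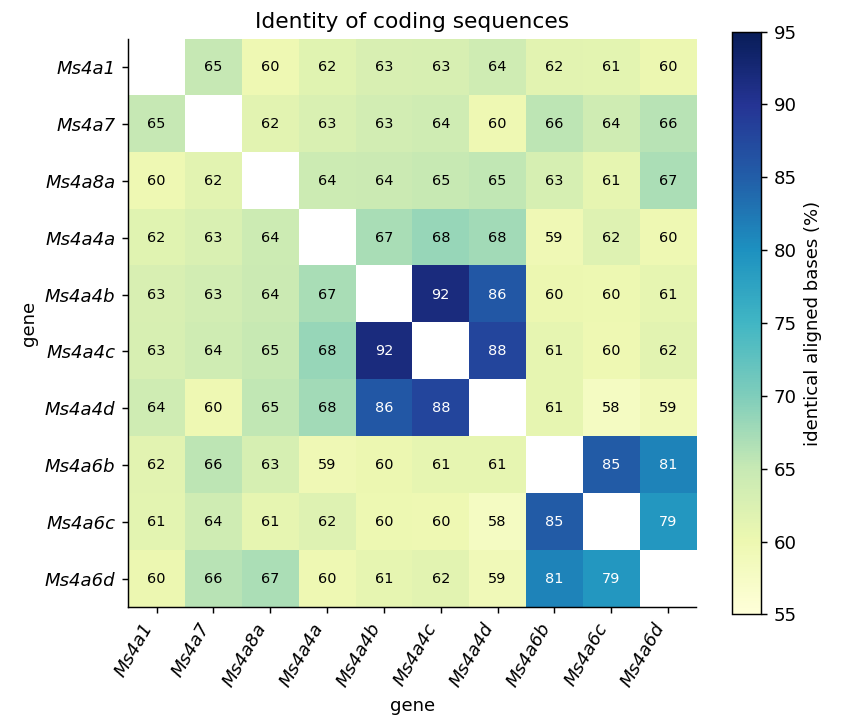
Identical bases as a percentage of aligned bases for pairs of coding sequences of the 7 members, Ms4a4b, Ms4a4d and Ms4a8a. A dark block joins Ms4a6b, Ms4a6c and Ms4a6d (79.1% to 85.3%), and another joins Ms4a4b, Ms4a4c and Ms4a4d.

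Promoters of the members were taken from RefSeq on GRCm38.p6, from 250 bases before to 50 bases after each start site, to set the sequence beside the levels. RefSeq gave 6 windows for 5 members, with none for Ms4a1 and Ms4a6d. Those of the abundant Ms4a7, Ms4a6c and Ms4a6b and of the low Ms4a4c are shown, 5' to 3' on the strand of the gene. Ms4a7 has a second window, chr19:11334646-11334945, which holds no match to the motifs searched and is not shown. Capitals mark GGAAGT, the core of the site bound by PU.1, the master factor of macrophages, or its reverse complement ACTTCC.
Ms4a7, chr19:11336097-11336396, minus strand: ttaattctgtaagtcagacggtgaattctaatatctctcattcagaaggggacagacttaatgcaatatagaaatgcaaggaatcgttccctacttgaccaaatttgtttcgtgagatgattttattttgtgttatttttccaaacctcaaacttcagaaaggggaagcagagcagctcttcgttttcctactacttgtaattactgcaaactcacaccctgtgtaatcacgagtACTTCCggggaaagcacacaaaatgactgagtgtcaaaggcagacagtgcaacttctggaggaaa
Ms4a6c, chr19:11469118-11469417, plus strand: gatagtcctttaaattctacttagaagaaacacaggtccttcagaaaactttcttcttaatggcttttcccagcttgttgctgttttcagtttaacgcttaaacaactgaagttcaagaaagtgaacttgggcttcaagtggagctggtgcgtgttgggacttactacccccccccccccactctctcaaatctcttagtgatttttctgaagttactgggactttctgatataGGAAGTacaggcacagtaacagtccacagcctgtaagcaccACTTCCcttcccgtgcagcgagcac
Ms4a6b, chr19:11518309-11518608, plus strand: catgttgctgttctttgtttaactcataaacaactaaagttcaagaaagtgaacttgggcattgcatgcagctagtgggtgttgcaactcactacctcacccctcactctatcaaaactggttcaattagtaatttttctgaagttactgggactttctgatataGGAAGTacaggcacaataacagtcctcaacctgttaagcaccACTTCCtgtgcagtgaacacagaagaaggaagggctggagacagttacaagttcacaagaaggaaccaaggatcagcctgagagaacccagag
Ms4a4c, chr19:11407411-11407710, plus strand: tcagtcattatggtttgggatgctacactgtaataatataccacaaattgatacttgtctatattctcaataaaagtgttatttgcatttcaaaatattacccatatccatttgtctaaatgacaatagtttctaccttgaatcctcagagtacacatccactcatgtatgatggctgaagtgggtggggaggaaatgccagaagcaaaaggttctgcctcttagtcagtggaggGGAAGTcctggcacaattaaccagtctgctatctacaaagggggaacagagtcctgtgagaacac

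GGAAGT was searched on both strands and was in 4 of the 6 windows, against 23.8% of 32851 promoter windows of the same length. In Ms4a7 the match begins 15 bases before the start site, on the opposite strand, and in Ms4a4c it begins 15 bases before it. Ms4a6c has a match 16 bases before and another that begins at base 26 of the transcript, and Ms4a6b has matches 85 and 43 bases before it. ACGTG, a form of the core of the hypoxia response element that HIF-1 binds, also searched on both strands, was in 0 of the 6 windows, against 19.6% of all windows. The other form of that core, GCGTG, was not searched, and the Ms4a6c window shown above holds it. The 0 therefore does not mean that these promoters lack the core. GGAAGT thus occurred in promoters of abundant members and of Ms4a4c alike, and a match is a description of sequence and not a bound site.

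Ms4a6c and Ms4a6b, whose differences were -0.27 and 1.22, had the most similar promoters of the members. Over 225 aligned bases 85.3% were identical, against 49.3% to 63.0% for the other pairs of these windows. They share an unbroken run of 48 bases that contains the PU.1 core, shown here because it is the longest stretch common to a pair of members. Their levels were 158 and 147 FPKM in KO and 192 and 62.7 FPKM in WT (Ms4a6c and Ms4a6b).
Ms4a6c and Ms4a6b, shared run: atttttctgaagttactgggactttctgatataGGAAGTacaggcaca
The run begins 49 bases before the start site of Ms4a6c and 118 bases before that of Ms4a6b.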

How the data were processed

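The authors deposited 1 table with an FPKM value per gene for each of 2 libraries, 1 per genotype, made from poly(A) RNA of sorted ATM. The submitters' processing notes name CASAVA 1.8.2, TopHat2 2.0.9, Cufflinks 2.2.1 and mm9, without further settings, and FPKM values are not counts, so no count model was used. The mutant column was read as KO, since no other library differed from WT. Of 20749 rows, 401 full repeats were dropped and 18 rows with another value for the same identifier were added to it, which left 20330 identifiers. A symbol in GENCODE M21 was found for 98.5% of them. Members and gene lists were chosen with earlier results of these data known.

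Differences were log2(FPKM + 1), KO minus WT, over 10297 genes at 1 FPKM or more in a library. With 1 library per genotype no test was made. Depth was estimated from the smallest recurring product of FPKM and transcript length, 0.171 in WT (18 genes at it, 3 below) and 0.134 in KO (20 genes at it), taken as 1 fragment. Intervals of ratios are exact binomial (Clopper-Pearson). All members were named, as were other family and partner genes at 1 FPKM or more, the 3 highest genes of each list, Hif1a and the 3 genes nearest to the highest member. Protein sequences were not used here, and coding sequences were aligned in their place. Coordinates and sequences are GRCm38, not the authors' build. Python 3.11.15, pandas 2.3.3, NumPy 2.4.6, SciPy 1.17.1, Biopython 1.88 and matplotlib 3.10.9 were used, and the steps were tested on simulated data. Alternatives were other pseudocounts, filters, scalings, a 2-fold threshold, the highest value of a repeated identifier and leaving out Ms4a1 or Ms4a7.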

Additional observations from a re-analysis of the deposited data

How the results depend on the processing

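No paired analysis was possible because there was only 1 library per genotype. The count of members lower in KO went from 1 to 0, and the member median from -0.00 to 0.61, both with at least 1 FPKM required in both libraries and with a mean of at least 5 FPKM, because Ms4a4c then did not pass. With a 2-fold threshold 2 members, Ms4a6b and Ms4a6d, were higher instead of 0. The other 26 of 31 alternatives to the 2 counts, the median and the summed level stayed within a 1.5-fold allowance and none turned a called direction. The log2 ratio of the sums, 0.40 as deposited, was 0.44 with equal FPKM sums, 0.41 with equal upper quartiles and 0.67 without Ms4a7. For single members 28 of 30 alternatives stayed within the allowance, and the difference of Ms4a4c was -3.64 with a pseudocount of 0.1 and -4.20 with 0.01. For the lists 251 of 297 did so and none reversed a call. With at least 1 FPKM in both libraries the genes higher in KO went from 1 to 0 for partners, resident macrophage and B cell markers, from 2 to 0 for interferon-stimulated genes, from 3 to 1 for neutrophil and from 2 to 1 for dendritic cell markers (0 with a mean of at least 5 FPKM). Under both stricter filters the genes lower in KO went from 1 to 0 for the other family genes (Ms4a4d) and from 3 to 1 for monocyte markers, whose median went from -1.11 to -0.76. The neutrophil median, 1.52, went to 0.85 when unfiltered and to 2.32 at a pseudocount of 0.1. The B cell median, -0.27, went to 0.88 under both stricter filters. Over all genes 2815 of 10297 were past 3-fold, against 876 of 7586 with at least 1 FPKM in both libraries, 1244 of 6872 with a mean of at least 5 FPKM, 4694 at 2-fold and 3752 with a pseudocount of 0.1. Depth limits Ms4a1 and Ms4a4c, and the spread between animals is unknown for every member.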
